A study of Homo sapiens with 9 samples.

Results

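The promoters described here are those at which RNA polymerase II gathered on a gene whose coding strand is G-rich just after the start. A peak was a member when its summit lay within 1000 bp of protein-coding transcript starts of a single strand, and when the coding strand from the nearest start to +500 bp had a skew, (G-C)/(G+C), of at least 0.05. The rule read the reference genome and the position of the summit, and no level of signal. Members numbered 997 of the 2757 peaks of the control list, 522 of the 1730 peaks listed for U2AF1 knockdown (U2AF1-KD) and 1733 of the 4443 listed for DHX9 knockdown (DHX9-KD), 3252 of 8930 peaks in all. They fell on 2262 starts. By the strongest one-strand peak of each gene and list, 2020 genes had a member in at least 1 list and 296 in each list. The remaining one-strand promoters with a peak, whose skew was below 0.05, served as the comparison (816, 440 and 1398 peaks), while promoters with starts on both strands (317, 156 and 507 peaks) were kept apart.

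ChIP-seq against POLR2A, the catalytic core subunit of RNA polymerase II, had been done in HEK293T, an established line from human embryonic kidney. The 3 conditions were a control shRNA (genotype given as wildtype), knockdown of U2AF1 and knockdown of DHX9, each with 2 ChIP samples and 1 input sample. The labels tie 1 peak list to both ChIP samples of a condition, but control peaks are named with an ending that could mean replicate 1, so that list may come from 1 library or from both. Each condition therefore had 1 list and no replicate error, library depth is unknown, and all intervals are 95% intervals that cover the counting error of peaks only. The prefix sh in the names of the knockdown lists is all the labels say of the agent, and how far each protein fell is not stated. Peak lists of polymerase measure neither that nor the identity of the line.

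Behind the advancing polymerase, the new RNA can pair again with the template strand and leave the coding strand single, a structure called an R-loop. Hybrids of G-rich RNA with C-rich DNA are particularly stable, so a coding strand with more G than C downstream of the start is a known sequence sign of promoters that form R-loops. Runs of G can also fold into G-quadruplexes on the freed strand. DHX9 is a helicase that unwinds RNA and DNA hybrids and quadruplexes, and U2AF1 is the small subunit of the factor that recognises the AG at the 3′ splice site. No R-loop was measured in the lists used here.

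The sequence that defines these promoters is shown for 11 of them, with 1 promoter below the threshold for contrast. Each line is a stretch of 100 bases outside exons, between the start and +500 bp. It is read 5′ to 3′ on the coding strand in GRCh38, with runs of 3 or more G in capitals. For the 11 G-rich promoters it is the stretch with the highest coding-strand skew, and for PGK1 the one with the lowest. Only stretches with at least as many G and C together as A and T together were considered. CIZ1, NFRKB and PACSIN2 had the highest skew among promoters with a member peak in every list, next to a second start of TAF12. U2AF1 and DHX9 are the genes that were knocked down. CALM3 and RPL13A belong to loci at which R-loops are often assayed. HSP90AB1 and RPS4X had a control peak and no U2AF1-KD peak, and BLOC1S2 and BSG had a peak in both knockdown lists and none in the control list. PGK1, not G-rich, had the highest fold enrichment of the one-strand promoters in each list. It was 42.3, 112 and 112 in the control, U2AF1-KD and DHX9-KD lists, with near-identical peak edges and widths of 555, 558 and 558 bp. Whether all reads of this peak came from the gene's own promoter was not tested.
CIZ1, chr9:128191122-128191221, minus strand: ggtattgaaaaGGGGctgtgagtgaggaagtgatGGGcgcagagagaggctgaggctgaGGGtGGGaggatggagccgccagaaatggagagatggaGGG
NFRKB, chr11:129895304-129895403, minus strand: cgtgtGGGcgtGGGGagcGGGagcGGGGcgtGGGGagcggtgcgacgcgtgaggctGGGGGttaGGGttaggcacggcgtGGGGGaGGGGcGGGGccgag
PACSIN2, chr22:43014731-43014830, minus strand: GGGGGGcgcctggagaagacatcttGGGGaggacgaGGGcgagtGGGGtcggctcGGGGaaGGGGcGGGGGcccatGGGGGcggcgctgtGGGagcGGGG
U2AF1, chr21:43107331-43107430, minus strand: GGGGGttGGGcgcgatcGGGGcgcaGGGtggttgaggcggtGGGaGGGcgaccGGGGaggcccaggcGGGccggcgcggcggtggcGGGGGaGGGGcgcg
DHX9, chr1:182839565-182839664, plus strand: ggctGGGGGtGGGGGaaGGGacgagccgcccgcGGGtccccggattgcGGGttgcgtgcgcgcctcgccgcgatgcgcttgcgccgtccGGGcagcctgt
CALM3, chr19:46601742-46601841, plus strand: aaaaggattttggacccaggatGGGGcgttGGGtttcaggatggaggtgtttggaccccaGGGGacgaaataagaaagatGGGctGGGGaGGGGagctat
RPL13A, chr19:49487852-49487951, plus strand: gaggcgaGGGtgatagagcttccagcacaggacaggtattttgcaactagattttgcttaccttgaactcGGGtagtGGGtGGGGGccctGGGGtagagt
HSP90AB1, chr6:44247294-44247393, plus strand: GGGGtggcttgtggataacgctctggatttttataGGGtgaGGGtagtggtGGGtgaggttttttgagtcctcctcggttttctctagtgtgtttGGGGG
RPS4X, chrX:72276968-72277067, minus strand: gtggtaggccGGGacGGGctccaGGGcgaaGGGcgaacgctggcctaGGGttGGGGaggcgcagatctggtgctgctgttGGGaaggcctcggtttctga
BLOC1S2, chr10:100286379-100286478, minus strand: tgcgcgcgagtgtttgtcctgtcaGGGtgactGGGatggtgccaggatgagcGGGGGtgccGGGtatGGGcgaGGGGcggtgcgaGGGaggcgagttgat
BSG, chr19:573014-573113, plus strand: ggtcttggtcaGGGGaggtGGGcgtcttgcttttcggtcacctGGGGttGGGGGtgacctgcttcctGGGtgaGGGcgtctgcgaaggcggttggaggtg
PGK1, chrX:78104407-78104506, plus strand: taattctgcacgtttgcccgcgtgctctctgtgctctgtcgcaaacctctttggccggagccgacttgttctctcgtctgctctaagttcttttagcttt

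The stretches differed in how the excess of G was arranged. NFRKB, PACSIN2 and U2AF1 each had 10 runs of 3 or more G, against 1 or 0 runs of C in the same 100 bases. CIZ1 reached the highest skew of these stretches, 0.695, with only 5 runs of G but 50 G against 9 C. DHX9 had 6 runs of G but also 32 C against 46 G, and its stretch had a skew of 0.179. The PGK1 stretch, chosen for the lowest skew, held 21 G and 30 C and no run of G. The opposite choice adds to its contrast with the other stretches.

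Over all 2262 G-rich starts, the skew rose at the start site, where the window that chose them begins. In bins of 100 bp the median skew lay between -0.025 and 0 from -1000 to -100 bp, was 0.045 in the last bin before the start and 0.16 in the first bin after it. It stayed between 0.12 and 0.15 up to +500 bp. The choice of members sets the level in all bins from the start to +500 bp, the first included. Beyond the window that chose them it stayed positive, at a median of 0.073 over +500 to +1000 bp, against 0.025 at the 1823 other starts. From +1300 bp on the medians of both classes lay between 0.048 and 0.067. Upstream, from -500 bp to the start, the classes were alike, with medians of -0.0054 and -0.0065.

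**Figure D1:**
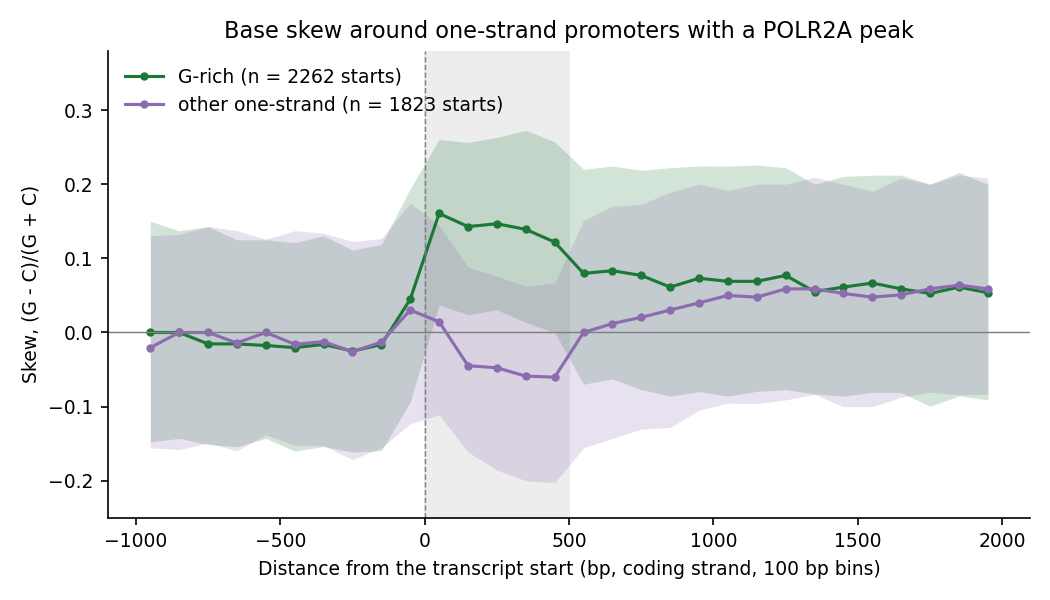
Skew of G over C on the coding strand (y axis, no unit) against distance from the transcript start (x axis, bp), in bins of 100 bp, for starts with a POLR2A peak in any list. Lines are medians over starts, bands run from the lower to the upper quartile, and the grey zone is the window used to choose the members. The G-rich starts rise to 0.16 in the first bin and still have a median of 0.080 in the first bin after the window.

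Inside the window, G-rich starts had a median of 19 runs of 3 or more G on the coding strand and 10 on the template strand, and the other starts had 13 and 16. A motif of the G-quadruplex type, GGG repeated 4 times with 1 to 7 bases between repeats, was on the coding strand at 52.0% of G-rich starts and on the template strand at 12.5%. At the other starts the shares were 27.4% and 39.3%. Of all 17078 canonical one-strand starts of the annotation 5123 had it on the coding strand and 20.2% on the template strand. These letters overlap those that chose the members, so the contrast is a description. Where the window held at least 50 bases of exon or intron, the first exon had a median skew of 0.11 (2098 starts) and the first intron 0.16 (1985 starts). The letters GGTGAG, which occur at many 5′ splice sites, were in the window at 48.5% of G-rich starts, at 37.3% of the others and at 39.8% of all canonical starts. GGTAAG was there at 12.1%, 12.6% and 19.4%.

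Features that the rule did not use differed less. Beyond the window, from +500 to +1000 bp, the quadruplex motif was on the coding strand at 16.9% of G-rich starts (15.4 to 18.5) and 19.6% of the others (17.9 to 21.5), a difference of -2.71 points (-5.11 to -0.33). Over all canonical one-strand starts, with or without a peak, the shares were 16.2% (15.4 to 17.0) and 16.1% (15.4 to 16.9), so no such difference was seen there. At the starts with a peak, the template strand held it at 10.6% and 18.0%, and over all canonical starts at 10.1% and 15.3%. G+C content from -500 to +500 bp had a median of 66.7% and 67.7%, and the observed over expected ratio of CpG was 0.844 and 0.841, so both classes had the composition of CpG islands. Over all canonical starts the ratio was 0.713.

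The first exon was shorter at G-rich starts. It ended within 500 bp at 90.1% of G-rich starts (88.8 to 91.3) and 81.9% of the others (80.1 to 83.6), a difference of 8.20 points (6.06 to 10.4), and over all canonical starts at 88.6% and 76.2%. Its median length over control peaks was 170 bp against 240 bp. Non-coding transcripts that start on the opposite strand within 1000 bp were annotated at 28.2% of G-rich starts and 34.6% of the others with a peak, -6.31 points (-9.17 to -3.45), but over all canonical one-strand starts at 17.5% and 17.8%, with intervals that overlap (16.7 to 18.3 and 17.0 to 18.6). A TATA box, searched as TATAAA on the coding strand from -40 to -20 bp, was rare at both, 1.28% and 2.52%, with a difference of -1.24 points (-2.15 to -0.41), against 4.28% of all canonical starts. CCAAT and GGGCGG, searched on both strands from -150 to -1 bp, did not differ beyond counting error. CCAAT was at 22.7% and 24.6% (difference -1.90 points, -4.53 to 0.72) and at 26.1% of all canonical starts. GGGCGG was at 71.3% and 73.0% (-1.70 points, -4.45 to 1.07) and at 51.8% of all canonical starts. A match is only a match of letters.

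G-rich promoters had a polymerase peak more often than other promoters did. Of 8557 G-rich canonical starts with no start of the other strand within 1000 bp, 23.01% had a summit of any list within 1000 bp (22.1 to 23.9, 1969 starts). Of 8521 other such starts, 18.6% did (17.8 to 19.5, 1589 starts), a difference of 4.36 points (3.15 to 5.58). The excess was in each list: 11.5% and 9.33% in the control list (2.13 points, 1.22 to 3.05), 5.92% and 5.20% in the U2AF1-KD list (0.73 points, 0.038 to 1.41) and 19.6% and 15.6% in the DHX9-KD list (4.01 points, 2.87 to 5.15). The lists share loci, so they are not 3 independent measurements, and neighbouring starts can share a peak.

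Base composition also moved with occupancy, and the excess was present at like G+C content. In the lowest quintile of G+C content, 1.54% of G-rich and 1.43% of other starts had a peak, with intervals that overlap (1.06 to 2.25 and 0.97 to 2.10). In the second quintile the shares were 15.2% and 9.75%, in the third 24.2% and 19.1%, in the fourth 34.9% and 28.2%, and in the highest 40.7% and 33.7%, with intervals apart in each. With the other starts reweighted to the G+C content of the G-rich ones, the difference in any list was 4.83 points (3.65 to 6.02). The level of expression of these genes is not in the files, and its part in the difference was not tested.

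**Figure D2:**
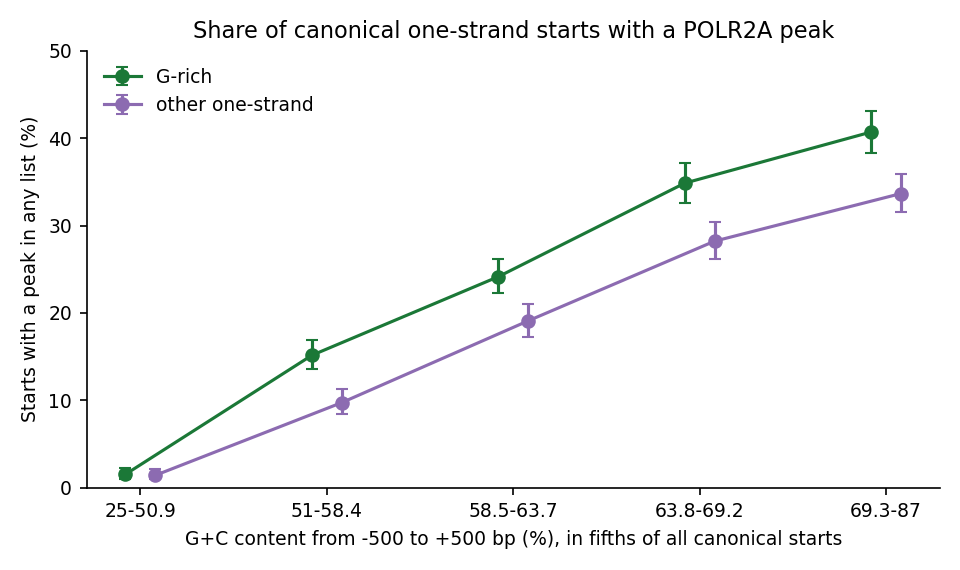
Share of canonical one-strand starts with a POLR2A summit of any list within 1000 bp (y axis, %), by quintiles of G+C content from -500 to +500 bp (x axis, %). Points are shares and bars 95% Wilson intervals. The G-rich starts lie above the others from the second quintile, 15.2% against 9.75%, to the highest, 40.7% against 33.7%.

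Gene families differed in how many of their occupied promoters were G-rich. Over all genes with a one-strand promoter peak 2020 of 3622 were, or 55.8%, and 50.1% of all canonical one-strand starts. A gene with a peak counted as G-rich when its strongest peak in any list was a member, at whichever start was nearest. The counts of canonical starts take 1 start per gene, so the shares are not counted alike, here and in each group below. Cytosolic ribosomal protein genes, which encode the ribosome's protein parts, were G-rich at 46 of 57 promoters with a peak (80.7%, 68.7 to 88.9). Of the family's 62 canonical starts, with or without a peak, 47 were G-rich. RPL17 and RPS23 had the highest skew among them, and RPLP1 the lowest. Mitochondrial ribosomal protein genes had 14 of 24, proteasome genes 7 of 10 and nuclear genes of oxidative phosphorylation 7 of 14.

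Among genes of RNA processing, the DEAD and DEAH box helicases, the family of DHX9, were G-rich at 11 of 13 promoters with a peak (84.6%, 57.8 to 95.7), all but DDX19A and DDX59. Of the family's 41 canonical starts 28 were G-rich. Other groups lay near the share over all genes, with intervals that include it. The group matched by symbol as snRNP proteins, LSM12 and LSM14A included, had 9 of 14 (64.3%, 38.8 to 83.7). The hnRNP and SR proteins had 9 of 15 (35.7 to 80.2). Translation factors had 10 of 18 and ZNF genes 50 of 81. All 5 occupied promoters of heat shock chaperones were G-rich: HSP90AB1, HSPA8, HSP90AA1, HSPA5 and DNAJB1. With so few genes the interval reaches down to 56.6%, close to the share over all genes, and of the family's 9 canonical starts 6 were G-rich. At the other end, the immediate early genes, which respond first to growth signals, had 3 of 11 (KLF10, KLF6 and JUN). The replication-dependent histone genes had 8 of 27. The interval of the immediate early genes, 9.75 to 56.6%, includes the 55.8% over all genes, and of their 19 canonical starts 3 were G-rich. That of the histone genes, 15.9 to 48.5%, lies below it, but of their 43 canonical starts, with or without a peak, 13 were G-rich, or 30.2%. The 8 histone genes were all of H4, which had 8 of 9, while H1 had 0 of 4, H2A 0 of 5, H2B 0 of 2 and H3 0 of 7. Histone genes have no introns, and their paralogs are near-identical in coding sequence, so members of a family are not independent.

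**Figure D3:**
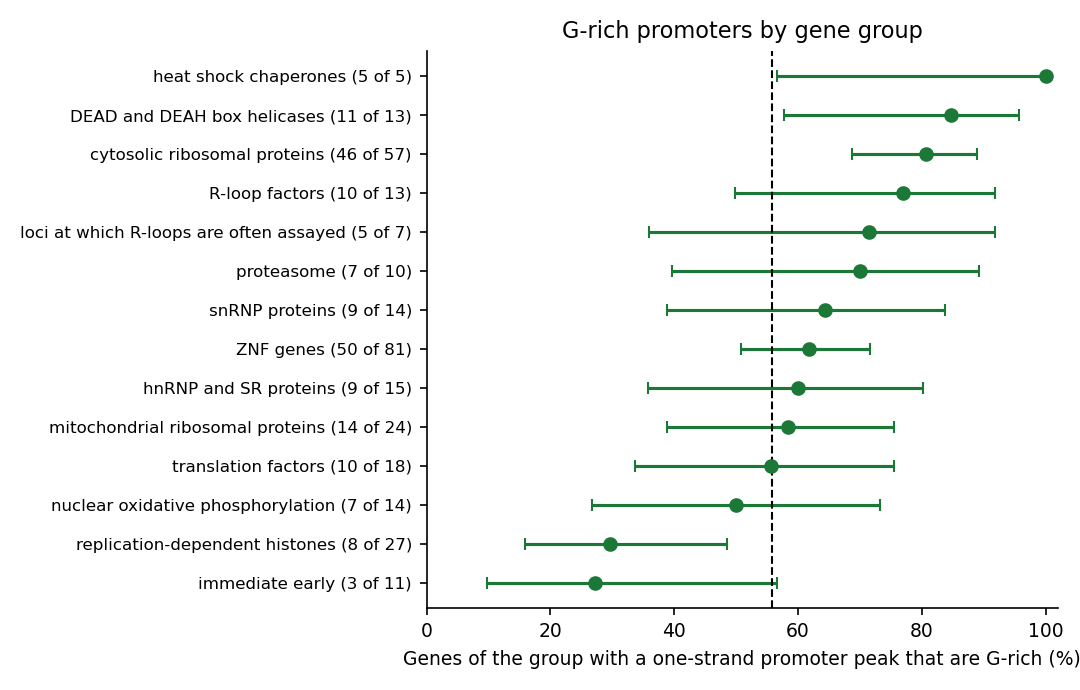
Share of each gene group's promoters with a peak that were G-rich (x axis, %), with 95% Wilson intervals as bars and the counts in the labels on the y axis. The dashed line is the share over all 3622 genes with a one-strand promoter peak, 55.8%. Cytosolic ribosomal protein genes lie at 80.7% and replication-dependent histones at 29.6%.

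At G-rich promoters the polymerase peak stood just inside the gene. The median summit lay 33 bp after the start in the control list (quartiles -49 and 65), 43.5 bp in the U2AF1-KD list (0.25 and 86) and 32 bp in the DHX9-KD list (-45 and 72). Other promoters had medians of 38, 46 and 31 bp. Summits lay downstream of the start at 66.4% of control members (63.4 to 69.3), 74.9% of U2AF1-KD members (71.0 to 78.4) and 65.1% of DHX9-KD members (62.8 to 67.3). The U2AF1-KD interval lay above those of the other lists, which hold different sets of promoters. For the other promoters these shares were 68.6% (65.4 to 71.7), 72.0% (67.7 to 76.0) and 66.0%, and the intervals of the U2AF1-KD and control lists overlapped. Whether the classes differ in this was not tested. Few member summits lay beyond the first exon: 8.53% in the control list (6.95 to 10.4), 11.7% in the U2AF1-KD list (9.21 to 14.7) and 11.4% in the DHX9-KD list (9.96 to 12.9). For the other promoters the shares were 7.35% (5.76 to 9.35), 6.36% (4.44 to 9.04) and 8.30% (6.96 to 9.86), so the intervals of the classes were apart in both knockdown lists and overlapped in the control list. The first exons of members were also shorter, and their part in the result was not tested. Peaks were narrow, with median widths of 324, 284 and 329 bp, and the median fold enrichment, the authors' own ratio, was 4.27, 4.99 and 5.44 within the respective lists.

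Where a control member overlapped a knockdown peak, the summits could be set against each other. At 339 such promoters the U2AF1-KD summit lay a median of 7 bp farther downstream than the control summit (quartiles -21 and 46.5). It was downstream at 193 of them, 56.9% (51.6 to 62.1), upstream at 142 and at the same base at 4. At the other one-strand promoters the median was 3.5 bp and 53.9% were downstream (48.1 to 59.6, 284 pairs), so the intervals of the classes overlap. For the DHX9 knockdown the median was 1 bp at 745 G-rich promoters, with 51.4% downstream (47.8 to 55.0). At the other one-strand promoters it was -1 bp, with 47.7% downstream (43.8 to 51.7, 599 pairs), so these intervals overlap too. With 1 list per condition, a shift of a few bases cannot be set against the spread between libraries.

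**Figure D4:**
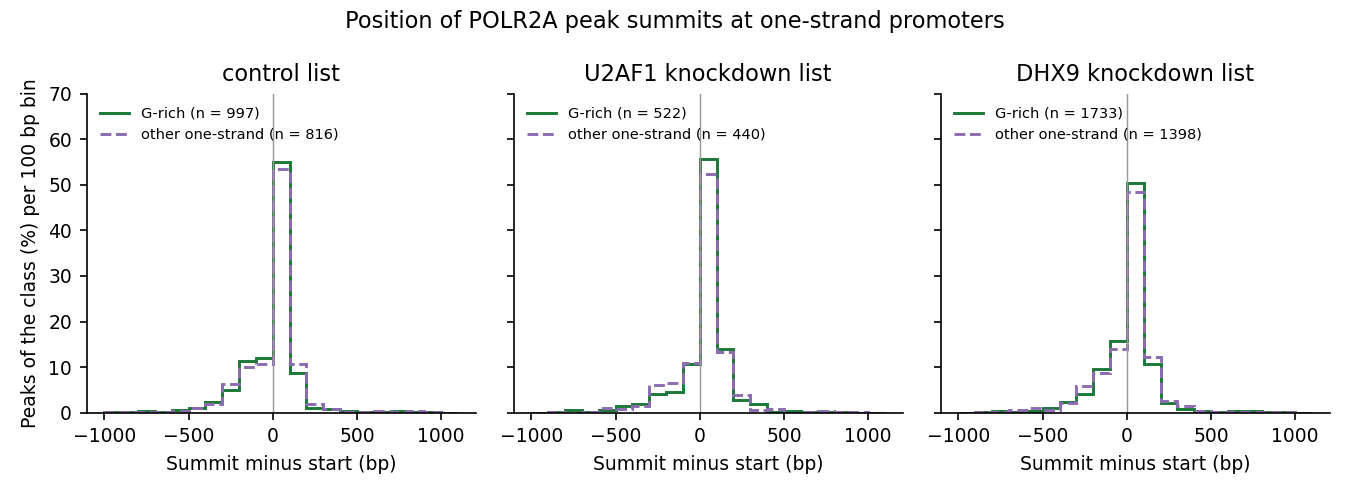
Position of peak summits relative to the nearest start (x axis, bp, bins of 100 bp, positive values downstream) as a share of the peaks of each class (y axis, %), 1 panel per list. Solid lines are G-rich and dashed lines other one-strand promoters. In every list the bin just after the start is the fullest for both classes, and the member medians are 33, 43.5 and 32 bp.

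No difference beyond counting error was seen in the make-up of the lists. G-rich promoters were 55.0% of the one-strand promoter peaks in the control list (52.7 to 57.3), 54.3% in the U2AF1-KD list (51.1 to 57.4) and 55.3% in the DHX9-KD list (53.6 to 57.1). Against control, the U2AF1-KD share was different by -0.73 points (95% Newcombe interval -4.62 to 3.15) and the DHX9-KD share by 0.36 points (-2.51 to 3.24). Between the DHX9-KD and U2AF1-KD lists it was 1.09 points (-2.49 to 4.69). A difference within these bounds, in either direction, could not be seen with lists of this length.

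Control promoters were then looked for in the knockdown lists. A peak was counted as found when a peak of the second list covered 1 bp of it or more. Of G-rich control peaks 34.0% (339 of 997, 31.1 to 37.0) were found in the U2AF1-KD list, and of the other one-strand control peaks 34.8% (284 of 816), against 34.6% of all control peaks. The difference of -0.80 points had an interval from -5.20 to 3.58. In the DHX9-KD list 74.9% of G-rich control peaks were found (747 of 997, 72.1 to 77.5) and 73.9% of the others, against 66.8% of all control peaks, a difference of 1.03 points (-2.99 to 5.08). The DHX9-KD list is the longest and the U2AF1-KD list the shortest, so the levels of these shares cannot be told apart from list length and depth. Within a pair of lists both classes share them.

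In reverse, 64.9% of G-rich U2AF1-KD peaks were found in the control list (339 of 522) and 64.1% of the others, against 55.1% of all peaks of that list, a difference of 0.85 points (-5.18 to 6.92). Of G-rich DHX9-KD peaks 42.9% were found in the control list (743 of 1733) and 43.1% of the others, against 41.3% of all, -0.26 points (-3.75 to 3.22). Between the knockdown lists, 79.3% of G-rich U2AF1-KD peaks were found in the DHX9-KD list (others 78.4%, all 69.1%) and 23.9% of G-rich DHX9-KD peaks in the U2AF1-KD list (others 24.5%, all 26.8%). Where control peaks were looked for in the DHX9-KD list and U2AF1-KD peaks in either other list, both classes lay above the share over all peaks, with intervals apart from it. For DHX9-KD peaks in the U2AF1-KD list the G-rich share lay below that over all peaks, and its interval (21.9 to 26.0) left it out. The interval of the others (22.4 to 26.9) included it, and the difference between the classes was -0.65 points (-3.68 to 2.36). Promoters with starts on both strands had shares from 23.9% to 79.5%, and their differences from the G-rich promoters included 0 in all 6.

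**Figure D5:**
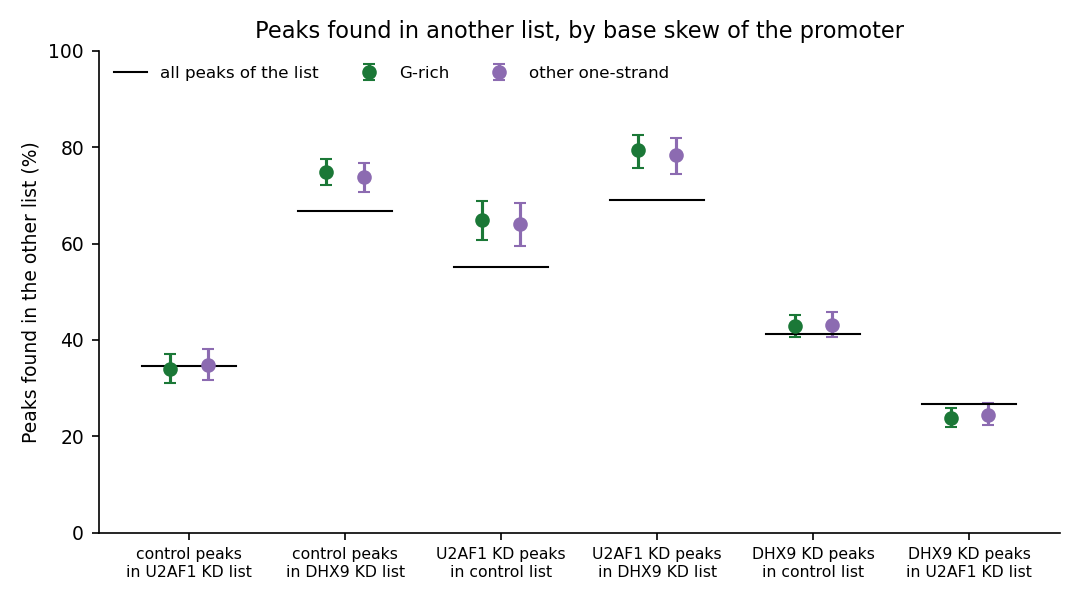
Share of peaks found in another list by at least 1 bp of overlap (y axis, %), for each direction between the 3 lists (x axis, KD for knockdown). Points are G-rich and other one-strand promoters with 95% Wilson intervals, and black lines the share over all peaks of the list. The classes overlap in each direction, for example 34.0% and 34.8% for control peaks in the U2AF1-KD list.

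Seen over both knockdowns, 309 of the 997 G-rich control peaks were found in both knockdown lists (31.0%), 438 in the DHX9-KD list alone (43.9%), 30 in the U2AF1-KD list alone (3.01%) and 220 in neither (22.1%). For the other one-strand control peaks the shares were 31.4%, 42.5%, 3.43% and 22.7%. Both comparisons share the control list. Of the G-rich DHX9-KD peaks 882 were in neither other list (50.9%), and of the G-rich U2AF1-KD peaks 74 (14.2%). The other one-strand peaks of these lists had like shares, 50.4% (705 of 1398) and 15% (66 of 440). At the 296 genes that were G-rich members in every list, fold enrichment had its median at percentile 49.9 of the genes with a one-strand peak in every list in the control list, 48.1 in the U2AF1-KD list and 47.7 in the DHX9-KD list. At the 239 genes that were members in no list, the medians were higher, at percentiles 52.0, 55.3 and 55.9. Whether the classes differ in this was not tested.

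The members of highest fold enrichment lay beside genes of small nuclear RNAs, the RNA parts of the spliceosome and of histone pre-mRNA processing. The peak assigned to WDR74 (chr11:62840260-62841967 in the control list) covered RNU2-2P and had a fold enrichment of 40.0 in the control list, 26.3 in the U2AF1-KD list and 19.7 in the DHX9-KD list, with ranks 5 of 2757, 5 of 1730 and 57 of 4443. Its annotated start, chr11:62841809-62841809, is also an end of RNU2-2P (62841619 to 62841809). The peak at POLDIP3, an mRNA export factor, covered RNU12 and had 24.4, 24.9 and 39.8. The peak at C12orf57 covered RNU7-1 and had 22.7, 19.1 and 32.1, and the one at TAF12, a subunit of the general factor TFIID, covered RNU11 and had 16.3, 13.2 and 31.1. These 4 peaks cannot be assigned to the coding promoter rather than to the small RNA gene, and such genes have near-identical copies elsewhere. Only 6, 5 and 8 member peaks of the respective lists overlapped a small RNA gene (0.60, 0.96 and 0.46%). Of the other one-strand peaks 2, 1 and 4 did (0.25, 0.23 and 0.29%). A small nuclear RNA gene was overlapped by 4 member peaks in each list and by 0, 0 and 1 of the others. Whether the classes differ in this was not tested.

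Away from small RNA genes, SLC7A5 and UBE2S were among the 4 strongest members of a list. SLC7A5, an amino acid transporter (start chr16:87869507-87869507), had a fold enrichment of 16.1, 15.2 and 16.1 in the control, U2AF1-KD and DHX9-KD lists, with summits 60, 75 and 67 bp after the start. UBE2S, a ubiquitin-conjugating enzyme of mitosis, had 7.15, 12.3 and 22.1, and ranks 206, 46 and 48 in lists of different length. The 4 promoters of highest skew among those with a member peak in every list were not among the strongest. CIZ1 had a skew of 0.44 over the window and fold enrichments of 5.17, 5.58 and 4.80, with summits upstream of the start, at -24, -11 and -309 bp. NFRKB, a subunit of the INO80 chromatin remodeller, had a skew of 0.39 and 4.98, 5.16 and 5.40, and a second TAF12 start (chr1:28643005-28643005) a skew of 0.35 and 3.71, 5.65 and 7.08. PACSIN2, which bends membranes, had a skew of 0.32 and 5.66, 5.86 and 7.64. The best rank of these 4 promoters was 428, that of PACSIN2 in the U2AF1-KD list.

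Among control members without a U2AF1-KD peak, the strongest were EIF4A2, a translation initiation helicase, HSP90AB1, the constitutive HSP90 chaperone, and RPS4X, a protein of the small ribosomal subunit. EIF4A2 had a fold enrichment of 9.68 in the control list (rank 110) and 8.22 in the DHX9-KD list, HSP90AB1 had 8.18 and 3.97, and RPS4X 8.13 and 9.09. All 3 were thus found in the DHX9-KD list. Of the G-rich ribosomal protein peaks of the control list 9 of 34 were found in the U2AF1-KD list (26.5%, 14.6 to 43.1), against 34.3% of the other G-rich control peaks (31.3 to 37.3), and 23 of 34 in the DHX9-KD list. The intervals of ribosomal and other genes overlap in both of these directions. Starting from the knockdown lists they were apart for peaks found in the control list. All 9 G-rich ribosomal protein peaks of the U2AF1-KD list were found there (70.1 to 100), against 64.3% of the other G-rich peaks (60.1 to 68.4). Of the DHX9-KD list 23 of 34 were (67.6%, 50.8 to 80.9), against 42.4% (40.0 to 44.7). The ribosomal peaks also had the higher median fold enrichment, 7.44 against 4.99 in the U2AF1-KD list and 6.57 against 5.42 in the DHX9-KD list, and its part in the result was not tested. In the opposite direction, FAM43A had 8.19 in the U2AF1-KD list and no peak in either other list. ANGEL1 had 7.78 there and 6.54 in the DHX9-KD list, and BLOC1S2, of a complex in lysosome biogenesis with a skew of 0.36, had 7.38 and 5.44.

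Control members without a DHX9-KD peak were led by SLC25A4, the mitochondrial ADP and ATP carrier, with a fold enrichment of 8.92 in the control list and 4.58 in the U2AF1-KD list. VEGFA, a growth factor for blood vessels, followed with 6.93 and 5.37, and CDR2 with 6.79 and no peak in either knockdown list. DHX9-KD members without a control peak were led by BSG, a cell surface glycoprotein, with 11.4 (6.79 in the U2AF1-KD list), KANSL2, of a histone acetyltransferase complex, with 10.6, and AGBL3, a carboxypeptidase, with 10.5. KANSL2 and AGBL3 had no U2AF1-KD peak. Absence from a list means that no peak was called there and not that polymerase was absent.

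Of the 7 loci at which R-loops are often assayed and that had a one-strand peak, 5 were G-rich, RPL13A, CALM3, TRIM33 and ACTB among them, while EGR1 and VIM were not. The interval of that share, 35.9 to 91.8%, includes the 55.8% over all genes with a peak, and of the group's 14 canonical starts 10 were G-rich. ACTB had a fold enrichment of 6.65, 7.52 and 10.2 in the control, U2AF1-KD and DHX9-KD lists, CALM3 5.75, 5.94 and 6.09, and TRIM33 3.06, 4.18 and 6.81. RPL13A had a peak in the control list alone, with 5.65 and rank 469. Thus ACTB, CALM3 and TRIM33 had a peak in every list, and RPL13A in neither knockdown list.

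Genes whose products act on R-loops were G-rich at 10 of 13 promoters with a peak, with DDX19A, XRN2 and TOP1 below the threshold. This share, too, has an interval (49.7 to 91.8%) that includes 55.8%, and over the group's canonical starts 18 of 29 were G-rich. DHX9 itself (start chr1:182839347-182839347, skew 0.071) had a promoter peak in every list, with a fold enrichment of 4.47, 6.03 and 4.81. U2AF1 (start chr21:43107570-43107570, skew 0.18) had no promoter peak in the control list, 4.26 in the U2AF1-KD list and 4.48 in the DHX9-KD list. U2AF1 has a second copy on the same chromosome in this assembly, so the assignment of its reads is uncertain. SRSF1, a splicing activator, had 4.20, 3.14 and 5.40, and RNASEH2C, a subunit of RNase H2, 4.02 in the control and 6.98 in the DHX9-KD list. DDX21 had 5.70 and 5.72 in the knockdown lists and no control peak. THOC1, of the THO complex that packages mRNA, had a control peak alone (4.56). RNASEH1 (7.94), DDX1 (4.20) and DDX17 (4.14) had a peak in the DHX9-KD list alone, which is also the longest list.

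The threshold cut through a continuous range. The median skew over one-strand promoter peaks was 0.065, 0.063 and 0.064 in the control, U2AF1-KD and DHX9-KD lists. Just inside were UCK1, a uridine and cytidine kinase, and MLYCD, malonyl-CoA decarboxylase, both at 0.0501, and just outside TMPO, a protein of the nuclear lamina, and PDCL3, both at 0.0499. MLYCD had a fold enrichment of 4.03 in the control list and 3.76 in the DHX9-KD list, and TMPO 4.74 and 4.95. UCK1 had 4.92 in the U2AF1-KD list and 6.27 in the DHX9-KD list, and PDCL3 3.90 in the DHX9-KD list alone. In 60 genes the nearest start differed between lists, so that the gene was a member in 1 list and not in another.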

How the data were processed

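POLR2A ChIP-seq of HEK293T cells was used as 3 deposited peak lists, 1 per condition. Per the submitters' processing notes, which give no role or order, the tools were Bowtie2 2.4.5, MACS2 2.2.7.1 and deepTools 3.5.1, with the build hg38. Per the file layout, the lists deposited by the authors hold a score, a fold enrichment (ratio), and −log10 p and −log10 q per peak. The score was not used. The background of the fold and the handling of the input are not given in the sources used here, so fold was used only to describe and rank peaks within a list. Read depth is unknown.

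Summits were assigned to protein-coding transcripts of GENCODE 44, and bases were read from GRCh38 with pysam 0.24.0. Shares have 95% Wilson intervals and differences 95% Newcombe intervals. These treat peaks as independent, which peaks of 1 library are not, so a difference was called where its interval left out 0, and no p-value was computed. Code was tested on simulated data. Canonical starts were 1 per gene, 17078 of 19625 with starts of 1 strand only within 1000 bp. Gene groups were matched by symbol, and not all genes of another function that share a prefix were left out. The snRNP group held LSM12 and LSM14A, and the translation factors held EIF4A3.

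Named promoters were the 4 of highest fold in each list, the 4 of highest skew with members in all lists, the 3 strongest absent from another list in each comparison with the control list, the 2 on either side of the threshold, and members among listed R-loop loci and factors, of which some are not reported here. PGK1 was added for contrast after its values were seen. The members and lists were chosen with earlier results of these data known. Alternatives are in the closing section.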

Additional observations from a re-analysis of the deposited data

How the results depend on the processing

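The 7 comparisons between lists were recomputed under other settings: a skew of at least 0.00 or 0.10, a skew window of 250 or 1000 bp, a summit window of 500 bp, all transcripts of protein-coding genes, a −log10 q of at least 5, equal numbers of the most significant peaks, and 1 peak per gene. For found peaks, an overlap of 50%, summits within 250 bp, and reweighting over quintiles of fold or G+C content were added. All 79 values stayed inside the interval of the value in the report, and their own intervals included 0. They ranged from -3.09 to 4.07 points, 41 above 0 and 38 below with the 7 comparisons pooled. The G-rich share of the U2AF1-KD list minus that of the control list was below 0 in all 9 alternatives. That of the DHX9-KD list minus that of the U2AF1-KD list was above 0 in all 9. In the other comparisons both signs occurred. The alternatives reuse the same lists and are not independent, and with intervals that include 0 no direction was called. The widest interval under the settings in the report reached 6.92 points, which bounds what these lists can show. The excess of G-rich canonical starts with a peak, whose alternatives were chosen after seeing the data, stayed above 0 in all 8, from 2.85 points with a −log10 q of at least 5 to 5.61 with a skew window of 250 bp. Without ribosomal protein genes it was 4.12 points. No paired analysis was possible because there is only 1 list per condition, and no replicate could be left out. Sequence shares and gene groups were not recomputed. The lists hold no depth, so the number of weak peaks missed in each is unknown.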

Other observations

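A split made after seeing the values set the members of highest skew against the rest. Of the G-rich DHX9-KD peaks with a skew of 0.2 or more, 18.1% were found in the U2AF1-KD list (56 of 309, 14.2 to 22.8), against 25.1% of those with a lower skew (358 of 1424), a difference of -7.02 points (-11.6 to -1.85). Of the G-rich control peaks 27.7% (48 of 173) and 35.3% (291 of 824) were found there, -7.57 points (-14.5 to 0.21). Both directions read the same U2AF1-KD list and share loci. In the other 4 of the 6 directions between lists the interval included 0, with differences from -4.36 to -1.83 points. Median fold enrichment was alike in both parts, 5.40 and 5.45 in the DHX9-KD list and 4.27 and 4.27 in the control list. Without ribosomal protein genes the DHX9 knockdown shares were 18.2% and 25.1%. Under 7 other settings the difference for DHX9-KD peaks stayed below 0, from -8.95 to -3.00 points, and its interval included 0 in 4 of them: both other skew windows (-3.00 points for 250 bp and -4.61 for 1000 bp), a −log10 q of at least 5 (-5.86) and equal list sizes (-8.95). For control peaks it ranged from -10.2 to -3.24 points, and its interval left out 0 in 4 of the 7: a summit window of 500 bp (-8.17), all transcripts (-8.01), equal list sizes (-10.2) and 1 peak per gene (-8.73). The cause was not tested.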
